A study of Danio rerio with 20 samples.

Results

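The transcripts described here encode 10 antioxidant enzymes of the zebrafish embryo, and none of them passed the test against control, after adjustment over all genes, at any HFPO-DA concentration tested. They are the peroxiredoxins prdx1, prdx2, prdx3, prdx5 and prdx6, the superoxide dismutases sod1 and sod2, the catalase cat and the glutathione peroxidases gpx1a and gpx4b. The genes were chosen by name and function. All 10 were found among the 9368 genes listed, and all 10 were among the 6933 genes whose mean over all pools was above 2.75 CPM (the reads of a gene scaled to a common library size), which were the genes tested.

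Superoxide is formed as a by-product of mitochondrial respiration and of oxidase enzymes. Superoxide dismutases turn it into hydrogen peroxide, which catalase in peroxisomes, peroxiredoxins and glutathione peroxidases then reduce to water. Peroxiredoxins are recharged mainly by thioredoxin, and glutathione peroxidases by glutathione. In mammals many of these genes are targets of NRF2, a transcription factor that is activated by electrophiles and oxidants.

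HFPO-DA (GenX) is a perfluorinated ether acid used in making fluoropolymers. Embryos of AB strain adults were kept one to a well from the sphere stage to 72 hours post fertilization (hpf), either in embryo water alone, as control, or in embryo water with 0.5, 1, 2 or 10 mg/L of pH-neutralized HFPO-DA. Whole embryos were pooled, 8 to 10 per pool, and RNA-Seq was run on libraries primed at the poly(A) tail with unique molecular identifiers. Values were analysed for 3 control pools (a to c) and 4 pools (a to d) at each concentration, 19 in all, while control pool d, which the labels call an outlier, was not analysed here. The labels do not say whether the pools of a group came from separate clutches, so p-values measure only the spread between pools.

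The pools held 104350 to 581494 reads on genes, and the 10 transcripts together took 0.116% to 0.177% of them, or 8015 reads in all. Levels are given as deposited, as TMM-normalized values in which 1 read was worth between 0.462 and 2.42 according to the pool. These values are not scaled by transcript length and were not used to rank the genes against each other. Marker genes of 8 cell types all had signal in the pools, as whole embryos should. Their sums include zeros replaced by 0.5 reads. For exocrine pancreas (13 of 16 markers listed) the sum lay near that floor in pool d at 10 mg/L. It was 18.1 there, where 1 read was worth 2.42. Pool d had the lowest sum in each exposure group, with 18.6, 18.5 and 18.1 at 0.5, 1 and 2 mg/L. In these pools 1 read was worth only 0.641, 0.462 and 0.482. Control pool b was at 17.9. Summed photoreceptor markers (16 of 17 listed) were 2834 to 3771 in control pools and 1990 to 3649 in exposed pools, and skeletal muscle markers (12 of 16 listed) were 16105 to 22076 and 16697 to 23846. The photoreceptor sums at 0.5 mg/L (2181 to 2573) and 1 mg/L (2065 to 2554) all lay below every control pool. Those at 2 mg/L (1990 to 2875) and 10 mg/L (2095 to 3649) overlapped control. In such bulk samples, fewer cells of a type and less RNA per cell cannot be told apart.

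Each concentration was compared with control to ask whether exposure altered the transcripts of these enzymes. In limma, with Benjamini-Hochberg adjustment over all genes tested and an adjusted p under 0.1 as the threshold, 0 of the 10 genes passed at any of the 4 concentrations. From 0.5 to 10 mg/L, the shares of all genes that passed were 0%, 0%, 0.0144% and 0.0144%. The study, with another test (NOISeq) at an FDR under 0.1, reported many more changed genes at each concentration. These small shares are thus those of limma. The smallest adjusted p-values among the 10 genes in limma were 0.813, 0.998, 0.912 and 0.967 in the same order. At an unadjusted p under 0.05, 0, 0, 0 and 1 of the 10 genes passed, beside 6.2%, 3.97%, 4.85% and 4.21% of all genes. edgeR and DESeq2, run on the whole reads recovered from the values, also passed 0 of the 10 genes in every comparison. The share of all genes that passed in these tools is not given here, so this count is not particular to the 10 genes.

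When the mean of the 4 exposures was set against control in 1 fit over all 19 pools, again 0 of 10 genes passed, beside 0% of all genes, and 1 of 10 had an unadjusted p under 0.05, beside 4.76% of all genes. The 95% interval of the log2 fold change included 0 for 9 of the 10. The precision of this comparison differed widely between the genes. For gpx4b, the most heavily sequenced of the 10 with 2111 reads, the interval ran from 0.943-fold to 1.39-fold, and for prdx2, with 1606 reads, from 0.772-fold to 1.25-fold. For gpx1a, with 191 reads, it ran from 0.893-fold to 2.49-fold, and for cat, with 226 reads, from 0.547-fold to 1.46-fold.

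**Figure D1:**
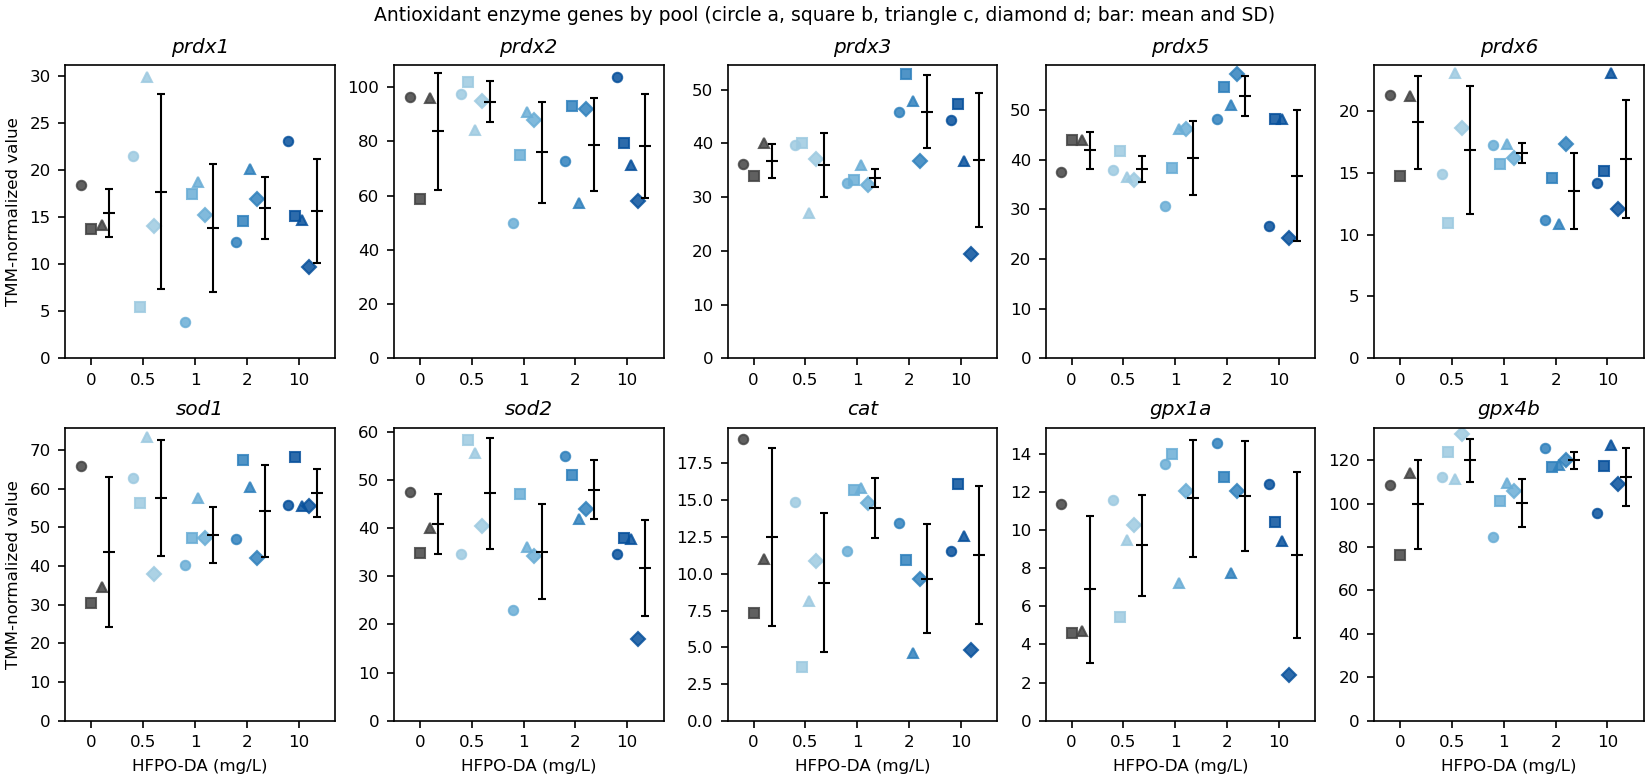
TMM-normalized value of each of the 10 antioxidant enzyme genes (vertical axis, from 0) in each of the 19 pools by HFPO-DA concentration in mg/L (0 is control). Marker shapes stand for pools a to d, and the bars give the mean and SD of each group. The number of exposed pools within the control range ran from 3 of 16 for prdx5 to 13 of 16 for sod1 and cat. The 4 pools at 2 mg/L lay above all control pools for prdx5 and gpx4b.

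Among the superoxide dismutases, sod1, which encodes the cytosolic copper-zinc enzyme, had a high value in control pool a and low values in control pools b and c. The control values were 65.9 (a), 30.3 (b) and 34.6 (c). The 0.5 mg/L pools a to d gave 62.7, 56.4, 73.3 and 37.8, the 1 mg/L pools 40.3, 47.1, 57.7 and 47.1, the 2 mg/L pools 47.1, 67.5, 60.4 and 42.0, and the 10 mg/L pools 55.8, 68.1, 55.6 and 55.6. Of the 16 exposed pools, 3 lay above all control pools, 13 lay between them and 0 lay below. Thus every exposed pool was above control pools b and c, whereas most were below control pool a.

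The mean of sod1 was 43.6 ± 19.4 (SD, n = 3) in control and 54.7 ± 10.4 (SD, n = 16) over the exposed pools. The log2 fold change for the mean of the exposures was 0.38 (SE 0.19), with an unadjusted p of 0.0494 and an adjusted p of 0.980 in limma. At the single concentrations, in rising order, it was 0.44, 0.21, 0.37 and 0.51, and at 10 mg/L the unadjusted p was 0.0360 and the adjusted p was 0.967 in limma. These values share the same 3 control pools and rest on them. Without control pool a the log2 fold change for the mean of the exposures was 0.72 (adjusted p = 0.176 in limma), and without control pool b it was 0.17 (adjusted p = 0.999 in limma). At the single concentrations, in rising order, it was 0.78, 0.55, 0.71 and 0.84 without control pool a, and 0.23, -0.0036, 0.16 and 0.29 without control pool b. Control pool a also had the highest summed liver markers of all pools, 796, and control pool b the lowest, 381 (15 of 16 markers listed), and the part of this in the sod1 values was not tested.

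The mitochondrial manganese enzyme gene, sod2, was measured at 47.5, 34.9 and 40.1 in control pools a to c. The 0.5 mg/L pools gave 34.7, 58.2, 55.6 and 40.4, the 1 mg/L pools 23.0, 47.1, 36.0 and 34.2, the 2 mg/L pools 54.9, 51.1, 41.8 and 43.9, and the 10 mg/L pools 34.6, 37.8, 37.7 and 16.9. Every exposure group overlapped control. The group means were 40.8 ± 6.33 (SD, n = 3) in control and, in rising order of concentration, 47.2 ± 11.5, 35.1 ± 9.87, 47.9 ± 6.13 and 31.8 ± 10.0 (SD, n = 4 each), so the order of the means did not follow the concentration.

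Further comparisons asked whether the exposures differed from each other and whether a gene moved with concentration. In limma's F test among the 4 exposures, 0 of 10 genes passed at the adjusted threshold, beside 0% of all genes, and 2 of 10 had an unadjusted p under 0.05, beside 4.47% of all genes. In limma they were sod2, with an unadjusted p of 0.0162, and prdx5, with an unadjusted p of 0.0486, each with an adjusted p of 0.964. Without pool d at 10 mg/L, 0 of the 10 genes had an unadjusted p under 0.05 in this test, and the count was also 0 in limma without trend and in DESeq2. It was 2 without control pool a and 1 without control pool b. The shares of all genes under 0.05 in these alternatives are not given here. In the slope per doubling of concentration over the 16 exposed pools, 0 of 10 passed at the adjusted threshold, beside 0% of all genes, and 1 of 10 had an unadjusted p under 0.05, beside 4.76% of all genes. That gene was sod2, at -0.11 log2 units per doubling (SE 0.05, adjusted p = 0.997 in limma). The sod2 value at 10 mg/L depended on pool d, the shallowest library, in which it had 7 reads. With that pool left out, the slope was -0.04 and the log2 fold change at 10 mg/L against control went from -0.41 to -0.14.

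Catalase transcripts were sparse. The control pools gave 19.1, 7.35 and 11.0, and the exposed pools ranged from 3.64 in pool b at 0.5 mg/L, where cat had 2 reads, to 16.1 in pool b at 10 mg/L. None of the 16 exposed pools lay above all control pools, 3 lay below them and 13 lay between. The mean was 12.5 ± 6.04 (SD, n = 3) in control and 11.2 ± 4.10 (SD, n = 16) over the exposed pools, a log2 fold change of -0.16 (SE 0.35). Without control pool a its sign turned, to 0.19, and without control pool b it was -0.47.

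Of the glutathione peroxidases, gpx4b encodes a form of the selenoenzyme that reduces lipid hydroperoxides in membranes. Its control values were 108.5, 76.3 and 114.0. The 0.5 mg/L pools gave 112.3, 123.7, 111.2 and 132.1, the 1 mg/L pools 84.4, 101.2, 109.6 and 105.8, the 2 mg/L pools 125.5, 116.7, 117.7 and 120.1, and the 10 mg/L pools 95.7, 117.3, 126.9 and 108.8. At 2 mg/L all 4 pools lay above every control pool, and 8 of the 16 exposed pools did so in all, with 0 below. Control pool b stood below every exposed pool, and controls a and c lay among them.

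The mean of gpx4b was 99.6 ± 20.4 (SD, n = 3) in control, against 120.0 ± 3.94 (SD, n = 4) at 2 mg/L and 119.8 ± 9.93 (SD, n = 4) at 0.5 mg/L. The log2 fold change was 0.29 at 2 mg/L (SE 0.17, adjusted p = 0.912 in limma) and 0.28 at 0.5 mg/L (SE 0.18, adjusted p = 0.838 in limma). For the mean of the exposures it was 0.20 (SE 0.14). Without control pool b the log2 fold change of gpx4b was 0.11 at 2 mg/L, 0.10 at 0.5 mg/L and 0.02 for the mean of the exposures. Without control pool c it was 0.40, 0.39 and 0.30 in the same order.

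The other glutathione peroxidase gene, gpx1a, encodes the form that reduces soluble hydrogen peroxide. It gave 11.3, 4.59 and 4.72 in the control pools, from 16, 5 and 6 reads. The 0.5 mg/L pools gave 11.6, 5.46, 9.50 and 10.3, the 1 mg/L pools 13.4, 14.0, 7.21 and 12.0, the 2 mg/L pools 14.6, 12.8, 7.74 and 12.1, and the 10 mg/L pools 12.4, 10.4, 9.44 and 2.42, the last from 1 read. All exposed pools but that one were above control pools b and c, 8 were above control pool a as well, and every exposure group overlapped control.

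The log2 fold change of gpx1a was the largest of the 10 for the mean of the exposures, 0.58 (SE 0.37), with an adjusted p of 0.980 in limma. It was 0.46, 0.80, 0.82 and 0.23 at the 4 concentrations in rising order, and its unadjusted p in limma came to 0.0714 for the 1 mg/L pools and 0.0529 for the 2 mg/L pools. Without control pool a the value for the mean of the exposures was 0.98, and without control pool b it was 0.37.

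**Figure D2:**
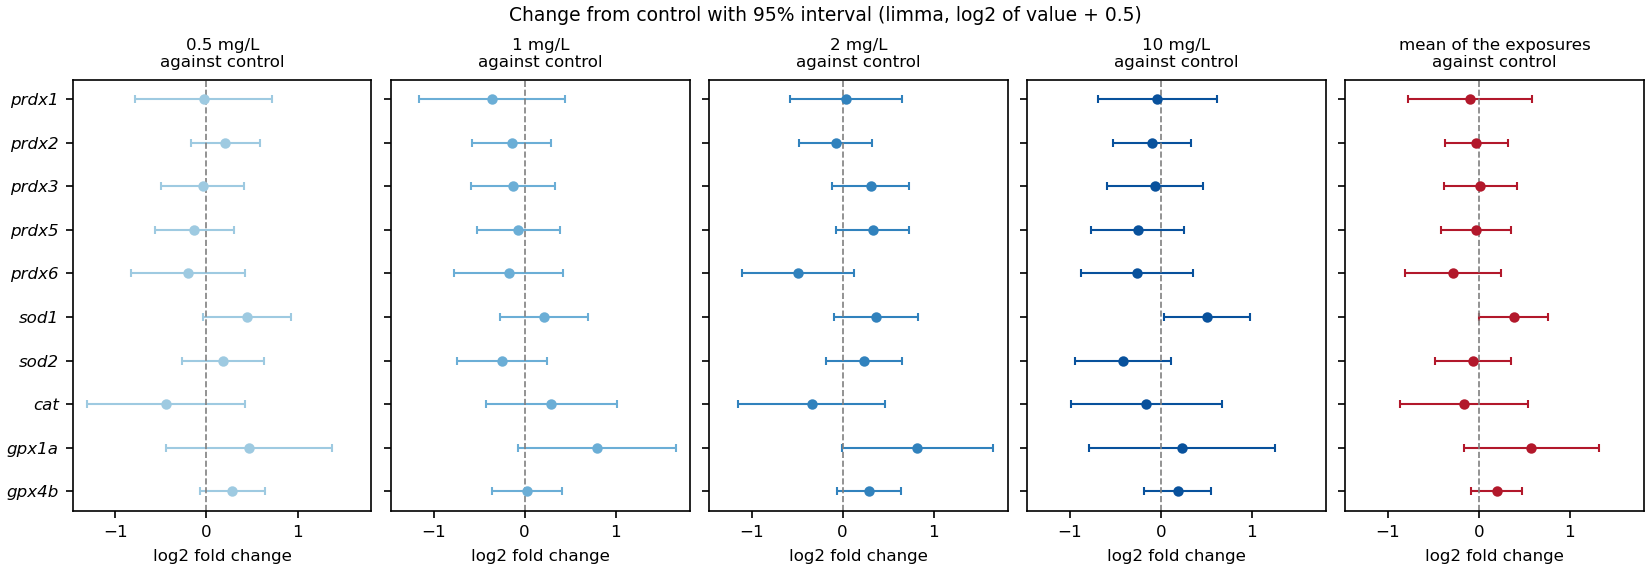
Log2 fold change from control with its 95% interval in limma, for each of the 10 genes (rows) at each concentration and for the mean of the exposures (panels). Nearly all intervals cross the dashed line at 0, and that of sod1 lies above it at 10 mg/L and only just above it for the mean of the exposures, and neither passed the threshold after adjustment over all genes.

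The peroxiredoxin genes were measured with 304 (prdx1), 1606 (prdx2), 714 (prdx3), 818 (prdx5) and 319 (prdx6) reads over the 19 pools. For prdx5, whose product is found in mitochondria, peroxisomes and cytosol in mammals, the control values were 37.6, 44.1 and 44.0. The pools at 2 mg/L gave 48.2, 54.7, 51.1 and 57.4, all above every control pool. The other exposures did not share this, with 38.0, 41.9, 36.6 and 35.9 in the 0.5 mg/L pools, 30.7, 38.4, 46.1 and 46.2 in the 1 mg/L pools, and 26.6, 48.2, 48.2 and 24.2 in the 10 mg/L pools. At 10 mg/L, pools b and c thus stood above all control pools and pools a and d below them. The mean of prdx5 was 41.9 ± 3.75 (SD, n = 3) in control and 52.9 ± 4.04 (SD, n = 4) at 2 mg/L, a log2 fold change of 0.33 (SE 0.20, adjusted p = 0.912 in limma).

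The mitochondrial peroxiredoxin gene, prdx3, gave 36.2, 34.0 and 40.1 in control and 46.0, 52.9, 48.0 and 36.7 at 2 mg/L, where 3 of the 4 pools lay above control. Its log2 fold change there was 0.31 (SE 0.21). Over the other exposed pools it ranged from 19.3 in pool d at 10 mg/L to 47.3 in pool b at 10 mg/L, and for the mean of the exposures the log2 fold change was 0.02 (SE 0.20).

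Of the peroxiredoxins that act mainly in the cytosol, prdx2, which in mammals is an abundant protein of red blood cells, gave 96.4, 58.8 and 95.9 in control and 49.9 (1 mg/L, pool a) to 103.7 (10 mg/L, pool a) in the exposed pools. Its mean was 83.7 ± 21.6 (SD, n = 3) in control and 81.9 ± 16.5 (SD, n = 16) over the exposed pools, and the log2 fold change was -0.03 (SE 0.17). Summed red blood cell markers (12 of 16 listed) ranged from 210 to 435 in control and from 198 to 444 in the exposed pools. For prdx1 the control pools gave 18.4, 13.8 and 14.2 and the exposed pools 3.84 to 29.8, with the lowest and the highest value in pool a at 1 mg/L and pool c at 0.5 mg/L. Its log2 fold change was -0.09 (SE 0.34). The gene prdx6, whose product works with a single catalytic cysteine and also has phospholipase activity, gave 21.3, 14.7 and 21.2 in control and 10.8 to 23.1 in the exposed pools. It was lowest on average at 2 mg/L, with 13.5 ± 3.08 (SD, n = 4) against 19.1 ± 3.78 (SD, n = 3) in control, a log2 fold change of -0.49 (SE 0.31, adjusted p = 0.912 in limma).

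Over the 10 genes and 4 concentrations, 2 of 40 comparisons gave groups that did not overlap, prdx5 and gpx4b at 2 mg/L, in each with the exposed pools higher. Of all genes tested, 2.05% were separated in this direction at 2 mg/L and 3.46% in the other. For the concentrations at which none of the 10 was separated, the shares of all genes separated upward and downward were 2.35% and 4.14% (0.5 mg/L), 2.45% and 2.71% (1 mg/L), and 2.37% and 3.4% (10 mg/L). At 2 mg/L the log2 fold change was above 0 for 7 of the 10 genes, beside 45.9% of all genes, and the median over the 10 was 0.26, where the median of all genes was -0.04. At 0.5, 1 and 10 mg/L, 5, 4 and 3 of the 10 were above 0, beside 44%, 46.1% and 45.3% of all genes, with medians of 0.08, -0.10 and -0.08. The summed skeletal muscle markers were also higher in all 4 pools at 2 mg/L, at 22707 to 23846, than in any control pool. Pools a to c at 10 mg/L stood above every control pool as well, at 22713 to 23137, and pool d did not, at 16697. The pools at 0.5 mg/L (20089 to 23365) and 1 mg/L (19157 to 22310) overlapped control. In the same comparison, the log2 fold change was above 0 for 12 of 12 skeletal muscle markers tested (median 0.27), for 0 of 14 photoreceptor markers (median -0.45) and for 0 of 10 neuron markers (median -0.27). At 2 mg/L it was also above 0 for 11 of 13 liver markers (median 0.35) and 8 of 10 red blood cell markers (median 0.30). For epidermis the count was 11 of 14 (median 0.09), for exocrine pancreas 5 of 9 (0.06) and for lens 7 of 14 (-0.003). The shifts of the muscle, photoreceptor and neuron markers were not particular to 2 mg/L. At 0.5, 1 and 10 mg/L, 10, 10 and 11 of 12 skeletal muscle markers were above 0. The counts were 0, 0 and 0 of 14 for photoreceptor markers and 1, 1 and 1 of 10 for neuron markers. The part of these markers in the values of prdx5 and gpx4b was not tested.

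The spread between pools was set beside the counting error of the reads behind each value, as coefficients of variation (CV) within groups. For gpx4b the observed CV was 11.5%, where counting error alone would give 10.6%, and for gpx1a it was 38.0%, where counting would give 36.0%. The observed and counting CVs also lay close together for prdx3 (19.2% and 18.3%) and prdx5 (19.6% and 17.5%), and for prdx6 the observed CV was below that of counting (23.8% and 28.1%). The observed CV was further above that of counting for prdx1 (40.7% and 28.4%), prdx2 (21.6% and 12.4%), sod1 (24.5% and 15.4%), cat (40.1% and 33.7%) and sod2 (24.0% and 17.9%). A ratio of the variance of the reads to that of counting, which allows for depth, divided the genes otherwise. It was 3.38 for sod1 and 3.01 for prdx2, and 0.758 to 1.78 for the other 8. Among these, gpx4b (1.38), sod2 (1.40) and cat (1.28) were alike.

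**Figure D3:**
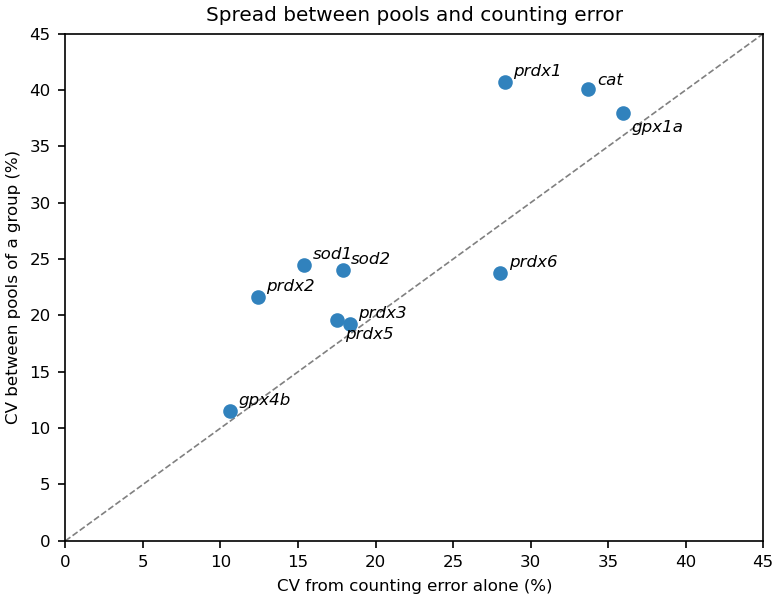
CV between pools of a group (vertical axis, %) against the CV that counting error alone would give (horizontal axis, %), 1 point for each of the 10 genes, with the dashed line where they are equal. The points of gpx4b, gpx1a, prdx3 and prdx5 lie near the line and prdx6 below it, and prdx1 (40.7% against 28.4%), prdx2 (21.6% against 12.4%) and sod1 (24.5% against 15.4%) lie furthest above it.

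Pools tended to be low or high in several of the 10 genes together. Control pool b was the lowest control pool for 9 of the 10 genes, and control pool a the highest for 7. Such counts were not made over all genes, so they are not shown to be particular to the 10. At 10 mg/L, pool d was the lowest of its group for 8 genes, and over all 19 pools it was among the 2 lowest for prdx3, prdx5, sod2 and gpx1a. Pool a at 1 mg/L was among the 2 lowest for prdx1, prdx2, sod2 and gpx4b. Control pool b and pool d at 10 mg/L also had the lowest summed skeletal muscle markers, 16105 and 16697. Pool a at 1 mg/L did not, at 20974. Pool b at 0.5 mg/L and pool c at 2 mg/L were each among the 2 lowest for 3 genes. Their muscle marker sums were 20089 and 22760. The part of tissue share in the low values was not tested.

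After the group means were taken out, the log2 values correlated with a median Pearson's r of 0.34 over the 45 pairs of genes and the 19 pools, and 44 of 45 were above 0. The closest pair was cat and gpx1a, at 0.80, and the least close was prdx3 and prdx6, at -0.05. All pairs share the same libraries and their depth. Without pool d at 10 mg/L, the median r over 18 pools was 0.17, 36 of 45 pairs were above 0, and cat and gpx1a stood at 0.74. The pair of prdx3 and prdx6 then stood at -0.59. These correlations are descriptions that were not set beside those of other gene pairs, and many rest on few reads.

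**Figure D4:**
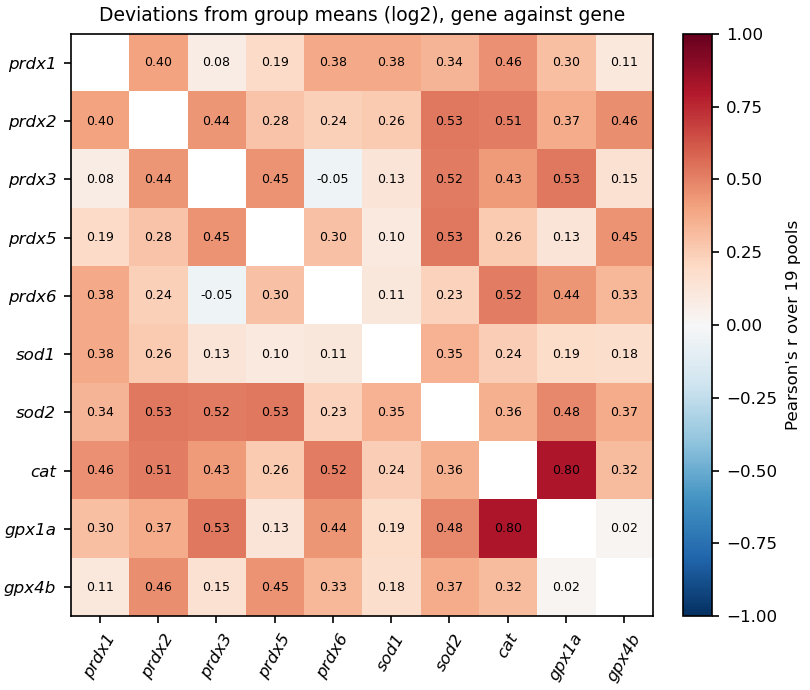
Pearson's r between each pair of the 10 genes (rows and columns), from log2 values with the group means taken out, over 19 pools. Colours run from blue at -1 to red at 1, and 44 of 45 pairs are above 0, with cat and gpx1a the highest at 0.80.

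For the most heavily sequenced of the 10 genes, the genes with the most similar profile over the 19 pools were looked up among 5278 genes with a mean of at least 10 CPM. For gpx4b they were ndufb3 (r = 0.85), which encodes a subunit of respiratory complex I, rpl30 (0.81), a ribosomal protein gene, and zgc:193541 (0.80). For prdx2 they were mapkapk5 (0.82), ube2t (0.81) and cox8a (0.78), the last a subunit of cytochrome c oxidase. For sod1 they were ndufa13 (0.82), also of complex I, zgc:110339 (0.79) and gnb2l1 (0.77), which encodes a scaffold protein of the ribosome. These are the highest of 5278 correlations each, among genes that share libraries, and mapkapk5 and ube2t had 82 and 84 reads in all.

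The genes that supply or regulate these enzymes were taken as 6 lists of 103 genes, of which 63 were matched by name and 53 passed the filter. In limma 0 of the 53 passed at the adjusted threshold in any comparison, where 0% to 0.0144% of all genes did, with a smallest adjusted p of 0.828. For the mean of the exposures, 29 of 53 had a log2 fold change above 0, beside 43.2% of all genes, and 1 of 53 had an unadjusted p under 0.05, beside 4.76% of all genes. That gene was gpx4a, the paralog of gpx4b, at 29.5 ± 15.4 (SD, n = 3) in control and 39.7 ± 12.4 (SD, n = 16) in the exposed pools. Its log2 fold change was 0.49 (SE 0.24, adjusted p = 0.980 in limma), and it was 0.87 without control pool a and 0.11 without control pool b. With each pool left out in turn, the difference was largest without control pool a and smallest without control pool b. The same held for sod1 and gpx1a, though for gpx1a control pools b and c were alike, at 4.59 and 4.72.

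In the list of other peroxidase and dismutase paralogs, 5 of 6 genes were above 0 for the mean of the exposures, among them prdx4, the peroxiredoxin of the endoplasmic reticulum, with 20.9 ± 3.70 (SD, n = 3) in control and 25.8 ± 5.00 (SD, n = 16) in the exposed pools. In the thioredoxin and glutaredoxin system, which recharges peroxiredoxins, 2 of 9 genes were above 0, and the log2 fold change was -0.01 for txn2, the mitochondrial thioredoxin, and -0.10 for txnipa, a thioredoxin-binding protein gene. In glutathione synthesis and NADPH supply, 3 of 6 were above 0. Of these, idh2, which makes NADPH in mitochondria, was at 0.05 and chac1, which degrades glutathione, at -0.16.

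Among the glutathione transferases, 9 of 12 genes were above 0, with gstp1 at 63.8 ± 2.51 (SD, n = 3) in control and 76.2 ± 16.2 (SD, n = 16) in the exposed pools, a log2 fold change of 0.23, and mgst3b at 0.07. In the list of the NRF2 pathway and its other targets, 6 of 10 were above 0, with the metallothionein gene mt2 at 0.24 and park7 at -0.34. In the list of selenoprotein synthesis and methionine sulfoxide reductases, 4 of 10 were above 0, with the selenium carrier gene sepp1a at 0.18 and sepw1 at -0.10. None of these values passed the test.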

How the data were processed

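The authors sorted reads by barcode, extracted molecular identifiers (UMI-tools 1.1.2), trimmed (Trimmomatic 0.40), removed ribosomal RNA, mapped to GRCz10 with STAR, removed duplicate molecules and counted reads on genes (HTSeq 0.13.5). The labels also name GRCz11, and no coordinates or sequences are given. The deposited values are a signal, TMM-normalized gene expression, with zeros replaced by 0.5 reads. Apart from these, 100% of values came out whole when divided by that of 1 read (relative tolerance 1e-05), which recovered the reads. Columns of other samples numbered 0.

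Log2 of the value plus 0.5 was tested in limma 3.58.1 (R 4.3.3; trend, two-sided) over 6933 genes with a mean above 2.75 CPM, pairwise or over all 5 groups. Fold changes on this scale understate those of low genes. limma stood in for NOISeq, which the study used and which was not run here. Alternatives were edgeR 4.0.16 and DESeq2 1.42.0 on recovered reads, pseudocounts of 0.1 and 2, no filter or a filter of 10 CPM, rescaling to CPM, quantile normalization, no trend, a replicate block, an adjusted p under 0.05, and leaving out each pool. The tests were checked on simulated reads, with planted changes larger than the main fold changes of the 10 genes. A level of recovery was required of limma and edgeR only. The check therefore does not bear on the power to find changes as small as those seen here.

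The 10 genes and all lists were chosen with earlier results of these data known. Named besides the 10 were the 2 genes with the most reads in each list, and the 3 genes most like each of the 3 members with the most reads. Of the lists' genes, 40 were not matched by name and 10 did not pass the filter. Intervals cover counting error only where said to be of counting.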

Additional observations from a re-analysis of the deposited data

Results flagged for a closer look

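Within groups of 4 pools, a pool was singled out where its gap to the nearest pool was too large a share of the range of the group by Dixon's criterion at the 95% level. Of 40 groups tested, 2 held such a pool, and chance gives about 1 in 20 groups.

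In sod1 at 10 mg/L, pool b had a value of 68.1, from 72 reads, where the other pools lay between 55.6 and 55.8. The exact Poisson 95% interval of that count corresponds to 53.3 to 85.8 and includes the other pools, whose own values lay unusually close together.

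In sod2 at 10 mg/L, pool d had a value of 16.9, from 7 reads, where the other pools lay between 34.6 and 37.8. Its exact Poisson 95% interval corresponds to 6.81 to 34.9, which reaches the lowest of the other pools. Both intervals cover counting error only.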

How the results depend on the processing

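The count of the 10 genes that passed the adjusted threshold was 0 in all 7 comparisons and stayed at 0 in all 163 alternatives run. For an adjusted p under 0.05 on the same fit this was fixed in advance. With a pool left out, few of all genes passed either. The highest counts were then 46 of 6933 genes at 0.5 mg/L and 31 for the mean of the exposures. In the main fits and with a pool left out, a count of 0 is thus not particular to the 10 genes. The smallest adjusted p of any of the 10 in any alternative was 0.176 in limma, for sod1 without control pool a. Of 934 alternatives for 36 single fold changes, 889 kept the direction and 45 turned it. Changing the filter, the trend or the threshold, or using 1 fit over all 5 groups, cannot alter a limma fold change. Part of the 889 was thus fixed in advance. For the mean of the exposures against control, the sign turned on rescaling to CPM for prdx3 (-0.0235), on quantile normalization for prdx2 (0.019), prdx5 (0.031), sod2 (0.010) and txn2 (0.045), in edgeR for prdx1 (0.073) and prdx5 (0.042), and in DESeq2 for prdx1 (0.090), prdx2 (0.020), prdx5 (0.058), sod2 (0.014) and txn2 (0.015). The cause was not tested.

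With each pool left out in turn, the log2 fold change of sod1 at 1 mg/L ran from -0.0036 to 0.55. For the mean of the exposures the ranges that crossed 0 were -0.18 to 0.035 for prdx1, -0.26 to 0.093 for prdx2, -0.037 to 0.087 for prdx3, -0.11 to 0.013 for prdx5, -0.17 to 0.052 for sod2, -0.47 to 0.19 for cat, -0.17 to 0.12 for txn2, -0.16 to 0.19 for mgst3b, -0.29 to 0.64 for mt2 and -0.010 to 0.44 for sepp1a. Other ranges did not cross 0 but moved by over 1.5 times. Among the 10 genes these were 0.17 to 0.72 for sod1, 0.37 to 0.98 for gpx1a and 0.015 to 0.30 for gpx4b. For prdx6 the range was -0.45 to -0.19. Among the lists' genes they were 0.11 to 0.87 for gpx4a, 0.0091 to 0.14 for idh2 and -0.23 to -0.014 for chac1. They were also -0.60 to -0.072 for park7, -0.17 to -0.0013 for sepw1, -0.19 to -0.022 for txnipa and 0.16 to 0.41 for prdx4.

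Deviations of same-lettered pools correlated at -0.06 to 0.18 over 36 pairs. The 3 pairs over 0.1 joined the d pools at 0.5, 1 and 2 mg/L with each other, the deepest library of each of these groups. Pairs of unlike letters ran from -0.09 to 0.12 over 108 pairs. Since the other same-lettered pairs were not over 0.1, the letters as a whole were not taken to pair the pools. What the d pools share was not tested, and with no control pool d analysed it lies in exposed pools only. A replicate block on the letters left 0 of the 10 genes passing in every comparison. Under the block the log2 fold change for the mean of the exposures was 0.031 for sod2 and 0.00982 for txn2, with the sign turned. The count over all genes under the block was 29 at 0.5 mg/L, where it was 0 without it, and without control pool a it was 46. Control pools a and b, and at 10 mg/L the shallow pool d, set most of these ranges, and depth limits cat, gpx1a, prdx1 and prdx6 most.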
